A study of Rattus norvegicus with 36 samples.

Results

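Transcripts of red cells and neutrophils were read in rat liver from 7 genes: Hbb, Alas2, Slc4a1 and Epb42 for red cells, and S100a8, S100a9 and Mmp8 for neutrophils. They were found as the probe sets to which the platform annotation gives 1 of these gene symbols, which returned 8 probe sets, 2 of them for Slc4a1, among 31042 probe sets and 14217 genes with a probe set of their own. The genes had been selected on measured values of these data: Hbb and Alas2 were lower at 9.71 mg/kg, and neutrophil markers were high in 1 animal at 970 mg/kg. Those values are therefore given as a description, without a test.

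The study measured liver RNA on Affymetrix 3′ IVT arrays after a short exposure to decabromodiphenylethane (DBDPE), a brominated flame retardant, to compare each dose with vehicle. The 36 samples form 6 groups of 6 male Sprague Dawley rats. The rats, aged 7 weeks when dosing began, were gavaged for 5 days with 5 ml/kg of corn oil that carried no DBDPE or a dose of 970, 97.1, 9.71, 0.97 or 0.1 mg/kg. Necropsy followed 1 day later, and RNA came from what remained of the left liver lobe. Whether the livers were flushed of blood is not given in the sources used here. The labels do not say that the 6 samples of a group are separate animals beyond numbering them, and each was taken as its own rat.

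Mature red cells have no nucleus, and the RNA they still hold is carried mostly by reticulocytes, the young red cells that have just left the bone marrow. Globin mRNA makes up most of it, and Alas2, the red cell form of the first enzyme of haem synthesis, supplies the haem that globin binds. Neutrophils are short-lived white cells that carry large stores of the calcium-binding proteins S100a8 and S100a9, which pair to form calprotectin, and of Mmp8, a collagenase. In a piece of whole liver, fewer cells of a type and less RNA per cell cannot be told apart, and blood held in the vessels is measured with the tissue.

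The 36 arrays had median log2 levels between 5.07 and 5.12 and correlated pairwise at 0.993 to 0.997. Of 12 hepatocyte markers, 11 were measured and all 11 lay above the array median, with a mean log2 level between 13.4 and 13.6 in every rat, so the labelled tissue was borne out by its markers. A log2 level here is the deposited signal of a probe set, and a difference of 1 is a doubling. Levels of different probe sets are not compared, because probes differ in binding.

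The promoters of 3 members are shown because the results turn on pairs of genes that varied together. Each is the stretch of 250 bases before the gene start used by RefSeq on build GRCr8, written 5′ to 3′ on the gene's own strand. Capitals mark AGATAA, the core bound by GATA factors, CACCC, the core bound by Krüppel-like factors, the CCAAT box and TATAAA, the TATA box, each searched on both strands. Hbb lies on the minus strand at chr1:167663722-167663971, Alas2 on the plus strand at chrX:22895200-22895449, and S100a9 on the minus strand at chr2:178490623-178490872.
Hbb: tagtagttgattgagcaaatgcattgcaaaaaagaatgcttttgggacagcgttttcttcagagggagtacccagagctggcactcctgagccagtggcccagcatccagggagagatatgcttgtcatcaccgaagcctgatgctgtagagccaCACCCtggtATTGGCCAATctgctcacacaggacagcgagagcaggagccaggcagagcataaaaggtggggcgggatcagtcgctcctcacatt
Alas2: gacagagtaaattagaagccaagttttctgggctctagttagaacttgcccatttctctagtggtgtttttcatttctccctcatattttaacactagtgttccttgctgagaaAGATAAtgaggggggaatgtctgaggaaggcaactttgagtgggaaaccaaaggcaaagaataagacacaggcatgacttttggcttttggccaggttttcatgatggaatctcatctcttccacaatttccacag
S100a9: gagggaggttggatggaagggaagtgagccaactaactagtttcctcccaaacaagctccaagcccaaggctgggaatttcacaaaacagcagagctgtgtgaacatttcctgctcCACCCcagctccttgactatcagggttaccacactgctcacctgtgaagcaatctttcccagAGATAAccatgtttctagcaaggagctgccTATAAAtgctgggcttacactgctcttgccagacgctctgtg

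The Hbb window held CACCC 95 bases before the start, and CCAAT 81 bases before it, overlapping a copy on the other strand that begins 86 bases before it. The Alas2 window held AGATAA 136 bases before the start. The S100a9 window held CACCC at 134, AGATAA at 72 and TATAAA at 42 bases before the start. Over 33469 promoters of the same 250 bases, 10.3% held AGATAA, 34.0% CCAAT, 49.2% CACCC and 12.9% TATAAA. These letters are common, so a match describes the sequence and no more.

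Hbb encodes the beta chain of adult haemoglobin. In the 6 vehicle rats its log2 level ran from 12.13 to 12.38 with a median of 12.31. The range was 11.96 to 12.51 (median 12.37) at 0.1 mg/kg and 11.68 to 12.65 (median 12.13) at 0.97 mg/kg. At 9.71 mg/kg it was 11.65 to 12.19 (median 11.79), at 97.1 mg/kg 11.81 to 12.79 (median 12.15) and at 970 mg/kg 12.15 to 12.69 (median 12.30). All groups overlapped the vehicle range, and at 9.71 mg/kg 5 of 6 rats lay below every vehicle rat.

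Vehicle rats averaged 12.27 ± 0.12 (SD, n = 6) for Hbb and rats given 9.71 mg/kg averaged 11.88 ± 0.22 (SD, n = 6), a difference of -0.40 or 0.76 of the vehicle signal. It was 12.36 ± 0.22 (SD, n = 6) at 970 mg/kg, 0.09 above vehicle with a 95% limma interval of -0.20 to 0.37. At the doses on either side of 9.71 mg/kg the differences were -0.17 at 0.97 mg/kg (interval -0.46 to 0.11) and -0.11 at 97.1 mg/kg (interval -0.39 to 0.17). At 0.1 mg/kg the difference was 0.03 (interval -0.26 to 0.31). The order of the group means ran from 970, 0.1 mg/kg and vehicle down to 97.1, 0.97 and 9.71 mg/kg. No neighbours in this order differed by more than the larger of their SDs.

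Alas2 gave nearly the same picture on its own probe set. Its log2 level was 6.73 to 7.28 (median 7.04) in vehicle, 6.78 to 7.33 (median 7.18) at 0.1 mg/kg and 6.42 to 7.25 (median 6.95) at 0.97 mg/kg. At 9.71 mg/kg it was 6.32 to 6.89 (median 6.56), at 97.1 mg/kg 6.44 to 7.54 (median 6.87) and at 970 mg/kg 6.85 to 7.66 (median 7.16). Again the groups overlapped, with 4 of 6 rats at 9.71 mg/kg below every vehicle rat and 2 of 6 rats at 970 mg/kg above every vehicle rat. The group means followed the same order as for Hbb, and no neighbours differed by more than the larger SD.

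For Alas2 the vehicle rats averaged 7.01 ± 0.19 (SD, n = 6) and those given 9.71 mg/kg 6.59 ± 0.25 (SD, n = 6), a difference of -0.42 or 0.75 of the vehicle signal. At 970 mg/kg the mean was 7.21 ± 0.33 (SD, n = 6), 0.21 above vehicle with a 95% limma interval of -0.11 to 0.52. The differences at 0.1, 0.97 and 97.1 mg/kg were 0.11 (interval -0.21 to 0.42), -0.17 (interval -0.48 to 0.15) and -0.10 (interval -0.42 to 0.21). Within each rat, the gap between the Alas2 and Hbb levels had group means that differed from the vehicle mean by -0.02 at 9.71 mg/kg and by 0.12 at 970 mg/kg, the widest. At 970 mg/kg 3 of 6 rats had a gap above that of every vehicle rat, and at 9.71 mg/kg all 6 were inside the vehicle range.

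Slc4a1, the band 3 anion exchanger of the red cell membrane, was read by a pair of probe sets that did not follow each other (r = 0.058 between rats). The one of higher mean had group means between 4.38 and 4.50, and its difference from vehicle was between -0.02 and 0.10 at every dose. The other ranged from 3.66 to 5.16 over the rats, with group means of 4.35 ± 0.49 (SD, n = 6) for vehicle, 4.01 ± 0.18 (SD, n = 6) at 9.71 mg/kg and 4.59 ± 0.31 (SD, n = 6) at 970 mg/kg. Its differences of -0.33 and 0.25 had 95% limma intervals of -0.76 to 0.10 and -0.18 to 0.68. At 9.71 mg/kg all 6 rats were inside the vehicle range.

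Epb42, protein 4.2, which ties band 3 to the red cell skeleton, stayed between 3.85 and 4.40 over the 36 rats. Its group means lay between 4.02 and 4.14, and the widest difference from vehicle was -0.12 at 0.97 mg/kg (95% limma interval -0.28 to 0.04). The level of Mmp8 lay between 2.93 and 3.56, with group means from 3.15 to 3.31 and a widest difference of 0.13 at 9.71 mg/kg (95% limma interval -0.05 to 0.31). Neither gene had a rat that stood apart from its group.

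**Figure D1:**
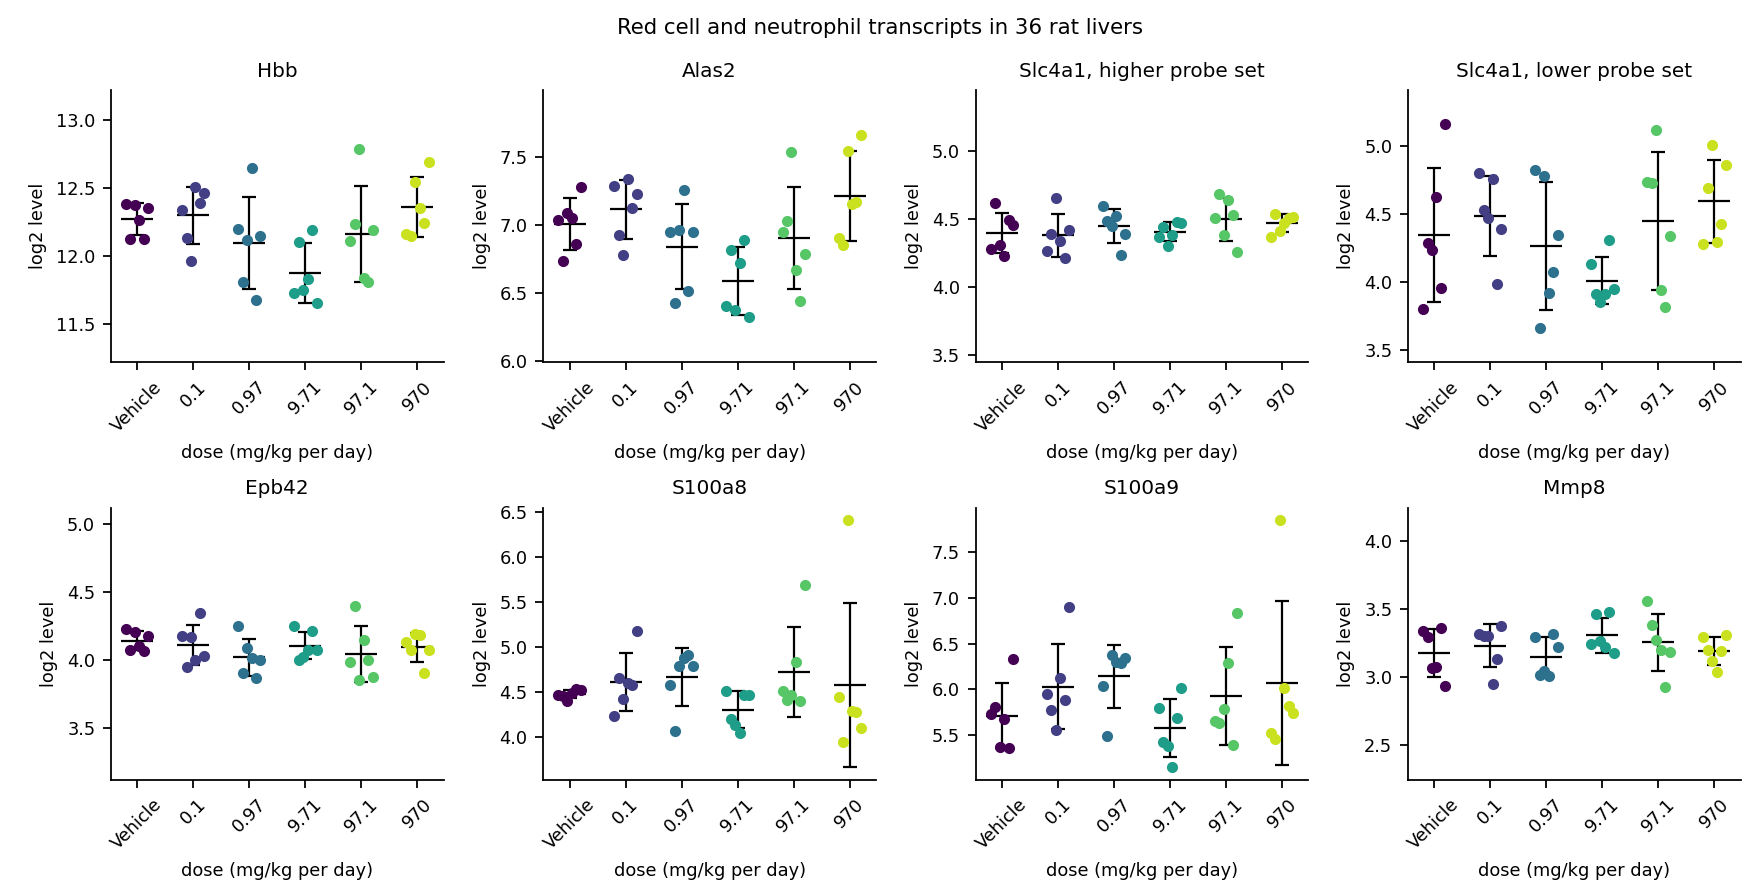
Log2 level of each member probe set (vertical axis, each panel with its own range) by dose in mg/kg per day (horizontal axis), with 1 point per rat, a bar at the group mean and whiskers of 1 SD (n = 6). Hbb and Alas2 move alike from group to group, and S100a8 and S100a9 share a high rat at 970 mg/kg, at 6.41 and 7.85.

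S100a8 had an SD of 0.05 in vehicle and of 0.20 to 0.92 in the dose groups, a gap in spread that was not tested. Its log2 level was 4.40 to 4.53 (median 4.47) in vehicle, 4.23 to 5.18 (median 4.59) at 0.1 mg/kg and 4.06 to 4.91 (median 4.79) at 0.97 mg/kg. At 9.71 mg/kg it was 4.04 to 4.51 (median 4.33), at 97.1 mg/kg 4.40 to 5.68 (median 4.49) and at 970 mg/kg 3.94 to 6.41 (median 4.28). The rat at 6.41 was replicate 3 of 970 mg/kg. Of the other 5 rats at this dose, 4 lay below every vehicle rat. At 0.97 mg/kg 5 of 6 rats lay above every vehicle rat and 1 below, and at 0.1 mg/kg 4 lay above and 1 below. At 97.1 mg/kg 2 lay above and 1 below, and at 9.71 mg/kg 0 lay above and 3 below.

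S100a9 ranged in vehicle from 5.36 to 6.33 with a median of 5.70. Its log2 level was 5.55 to 6.91 (median 5.91) at 0.1 mg/kg, 5.49 to 6.38 (median 6.30) at 0.97 mg/kg and 5.14 to 6.01 (median 5.56) at 9.71 mg/kg. It was 5.38 to 6.83 (median 5.72) at 97.1 mg/kg and 5.45 to 7.85 (median 5.78) at 970 mg/kg. The highest rat was the same replicate 3, and all dose groups overlapped vehicle.

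S100a8 averaged 4.47 ± 0.05 (SD, n = 6) over vehicle rats and 4.57 ± 0.92 (SD, n = 6) over those given 970 mg/kg, a difference of 0.10. Without replicate 3 of 970 mg/kg, the rat by which the neutrophil genes were selected, the difference turned to -0.27. For S100a9 the means were 5.71 ± 0.35 and 6.07 ± 0.90 (SD, n = 6 each), a difference of 0.35 that became -0.0041 without the same rat. The order of group means ran from 97.1 to 9.71 mg/kg for S100a8 and from 0.97 to 9.71 mg/kg for S100a9, and no neighbours differed by more than the larger SD. At 97.1 mg/kg the differences of 0.24 for S100a8 and 0.22 for S100a9 became 0.05 and 0.03 without replicate 6. The widest S100a9 difference was 0.43 at 0.97 mg/kg (95% limma interval -0.14 to 1.00), where 2 of 6 rats lay above every vehicle rat. The limma intervals use a spread pooled over all 6 groups, replicate 3 of 970 mg/kg included. The S100a9 SDs were 0.35 in vehicle and 0.34 at 0.97 mg/kg. At 9.71 mg/kg the differences were -0.17 for S100a8 and -0.14 for S100a9, inside intervals that span 0, and that of S100a9 became -0.015 without replicate 6 of vehicle.

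The limma tests of the members are given without the values by which they were selected, those of Hbb and Alas2 at 9.71 mg/kg and of the 3 neutrophil genes at 970 mg/kg. With Benjamini-Hochberg adjustment at 0.05, 0 of 8 member probe sets passed at 0.1, 0.97 and 97.1 mg/kg, 0 of the other 6 at 9.71 mg/kg and 0 of the other 5 at 970 mg/kg. Over all probe sets 0% passed at 0.1, 0.97 and 9.71 mg/kg, and 0.00644% (2 probe sets, Cyp1a1 and Cyp1a2) passed at 97.1 mg/kg, at 970 mg/kg, in the test of the 5 doses together and in the trend over dose steps. At an unadjusted p under 0.05 the same member probe sets again gave 0 at each dose in the fit to all 36 samples. This count was not 0 under every alternative. At 0.97 mg/kg 1 of 8 passed with the 12 samples fitted alone, beside 1531 of all 31042 probe sets. The count was also 1 of 8 without replicate 1 and without replicate 4 of that dose, beside 1540 and 1334 of 31042. Over all probe sets 4.46% passed that threshold at 0.1 mg/kg, 4.92% at 0.97 mg/kg, 5.06% at 9.71 mg/kg, 5.42% at 97.1 mg/kg and 4.87% at 970 mg/kg, so among 5 to 8 probe sets a count of 0 does not set the members apart from the array.

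Between rats of 1 group, 5 of the 8 member probe sets varied far more than most of the array. The within-group SD of the log2 level was 0.53 for S100a9, above 99.3% of all probe sets, and 0.47 for S100a8, above 99.1%. It was 0.29 for Alas2, above 96.4%, and 0.26 for Hbb, above 95.1%. The Slc4a1 probe set of lower mean had 0.39, above 98.5%, and that of higher mean 0.13, above 38.5%. The SDs of Epb42 (0.13) and Mmp8 (0.16) exceeded those of 47.4% and 69.6% of probe sets. The signal of the highest rat over that of the lowest was 2.19-fold for Hbb, 2.53-fold for Alas2, 5.55-fold for S100a8 and 6.54-fold for S100a9. For S100a8 and S100a9 the highest rat was replicate 3 of 970 mg/kg, by which the neutrophil genes were selected. Their within-group SDs include it too, and at 970 mg/kg alone the SDs were 0.92 and 0.90. The spreads of S100a8 and S100a9 are therefore descriptions, and were not recomputed without that rat.

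The share of the variance that lay between dose groups had a median of 12.5% over all probe sets. With replicate 3 of 970 mg/kg included, it was 9.15% for S100a8 and 15.0% for S100a9. For Hbb and Alas2 it was 32.0% and 37.5%, which includes the 9.71 mg/kg group by which they were selected.

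To see which members varied together, each level was taken as its deviation from the mean of its dose group, over all 36 rats. Hbb and Alas2 deviated together (Pearson r = 0.934, Spearman rho = 0.909, permutation p = 1e-05 for each, the smallest that 100000 resamples can give, and 1.05e-04 adjusted over the 21 member pairs). Without the 2 rats farthest from the median of Hbb, r was 0.922. Within vehicle and the 3 lowest doses (n = 24) r was 0.921, and within the 2 top doses (n = 12), which hold none of the 9.71 mg/kg rats, it was 0.953. Replicate 3 of 97.1 mg/kg was the highest of its group for both genes, at 12.79 and 7.54, and without it r was 0.917.

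S100a8 and S100a9 also deviated together, with r = 0.905 and rho = 0.811 over all 36 rats. Since replicate 3 of 970 mg/kg had been seen when the members were selected, the test is given without it: r = 0.817 over the 35 other rats (permutation, adjusted p = 1.05e-04). Within vehicle and the 3 lowest doses (n = 24) r was 0.789, with an adjusted permutation p of 0.00021. The S100a8 and S100a9 genes are neighbours on chromosome 2, with 0 genes between them in the RefSeq table. The highest rat was the same for both genes at 0.1 mg/kg (5.18 and 6.91) and at 97.1 mg/kg (5.68 and 6.83). These are different rats, each numbered replicate 6 in its own group.

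**Figure D2:**
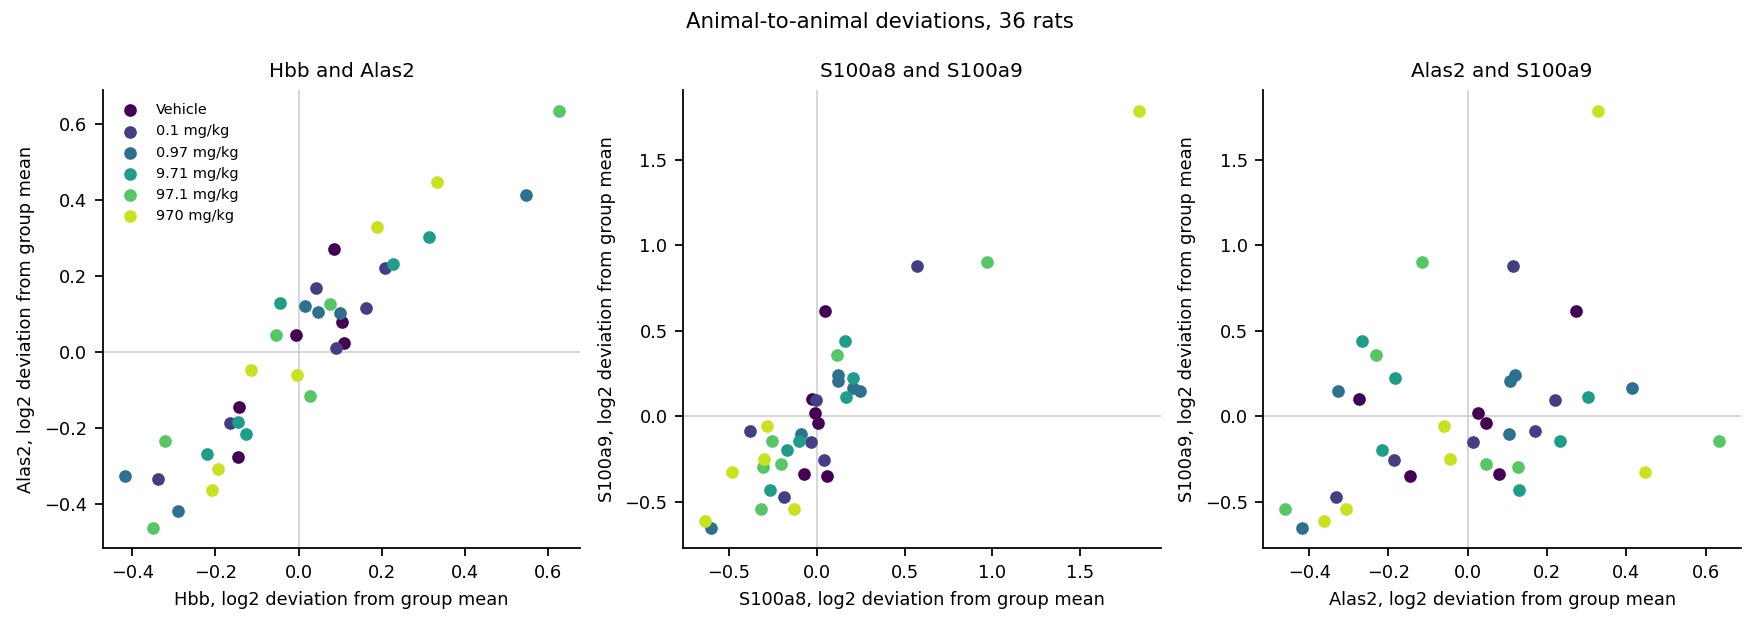
Log2 deviation of each rat from its dose group mean for 3 pairs of genes, Hbb with Alas2, S100a8 with S100a9, and Alas2 with S100a9, with 1 point per rat coloured by dose. The first 2 pairs follow a line (r = 0.934 and 0.905), and the third pair scatters (r = 0.31).

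The other 19 member pairs had r between -0.25 and 0.31, and none passed the permutation test adjusted over the 21 pairs. The closest link between a red cell and a neutrophil gene was Alas2 with S100a9 (r = 0.31, rho = 0.329, adjusted permutation p = 0.457 and 0.361), and r fell to 0.22 without replicate 3 of 970 mg/kg. Hbb with S100a9 had r = 0.26 (adjusted permutation p = 0.522). Epb42 and Mmp8 followed no other member, with r of at most 0.26 for Epb42 and 0.15 for Mmp8.

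Which Slc4a1 probe set is used decided whether that gene joined the red cell pair. The probe set of lower mean correlated with Alas2 (r = 0.591, rho = 0.568, adjusted permutation p = 0.00147 and 0.00329) and more weakly with Hbb (r = 0.439, adjusted permutation p = 0.0380, and rho = 0.397 with 0.0899). The one of higher mean had r = -0.12 with Alas2 and -0.13 with Hbb. This comparison of the probe sets was added after their values had been seen.

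A set of globin probe sets chosen by gene name moved with Hbb. Including Hbb it held 7, of which 5 are assigned to several genes. Of these 5, 3 are shared by Hba-a2 and Hba-a1, the alpha chains, and 2 by Hbbl1 and Hbb-bs, other beta chains. The sequences of the 7 are close enough to share signal, so they are not independent readings. Their 21 pairs had r between 0.922 and 0.994. With Alas2, which is no globin, the 6 of this set other than Hbb had r from 0.894 for Hba-a3 to 0.950 for 1 of the Hba-a2 and Hba-a1 sets. Hbe1, Hbe2 and Hbz, globin genes outside this set, had r of 0.49, -0.09 and 0.17 with the mean deviation of Hbb and Alas2. Their mean log2 levels were 3.34, 4.15 and 3.39.

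**Figure D3:**
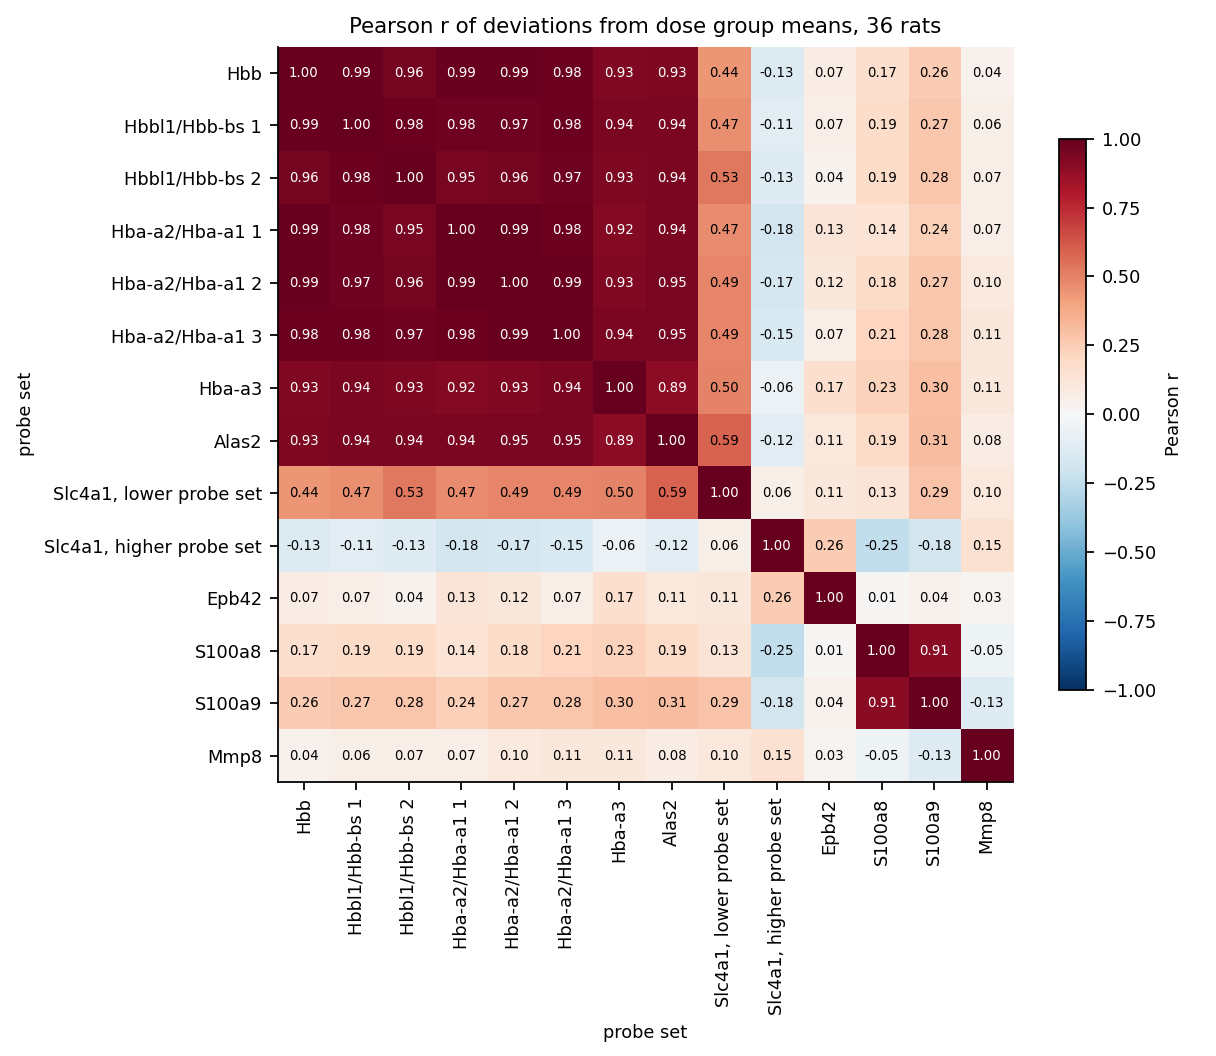
Pearson r between the deviations of 14 probe sets from their dose group means over 36 rats, with red for r above 0 and blue for r below 0. The 7 globin probe sets shown and Alas2 form 1 block, and S100a8 and S100a9 another. The Slc4a1 probe set of higher mean, Epb42 and Mmp8 lie outside both.

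RNA quality was followed by the gap between the 3′ and 5′ beta-actin control probe sets, which ran from 1.02 to 1.33 log2 units over the arrays. Its deviations correlated with those of Hbb at r = 0.22 and of Alas2 at r = 0.22 (adjusted permutation p = 0.472 for both, over 7 members), and at -0.0044 for S100a9. The highest value was 0.35, for Mmp8 (adjusted permutation p = 0.238).

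Genes most like each group were ranked by r over the 36 rats with the mean of the standardised deviations of its members. For the 4 red cell members they were Hba-a3 (0.77), Nisch (0.73), Cdc25b (0.71), Dpp9 (0.63), Pde7b (0.63), Ces1d (0.62), Fstl4 (0.61), Ybx3 (0.60), Apeg3 (0.59) and Eftud2 (0.59). For the 3 neutrophil members they were Stk36 (0.72), Mcpt8 (0.64), Amz2 (0.63), Phc3 (0.60), Tnnt2 (0.60), Adam19 (0.58), Myl11 (0.58), Tnfrsf9 (0.57), Plxnb1 (0.57) and Helq (0.57). Over all probe sets 0.203% had r above 0.5 with the red cell mean and 0.235% with the neutrophil mean. The neutrophil ranking includes replicate 3 of 970 mg/kg, by which these members were selected, and is a description. Tnnt2, Mcpt8, Adam19 and Stk36 had mean log2 levels from 2.70 to 3.15, where a probe set may hold little signal above background. Both means hold members that did not vary with the rest, so the ranking was repeated, after the values had been seen, for each correlated pair alone.

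With Hbb and Alas2 alone, r was 0.93 for Hba-a3, an alpha globin, 0.80 for Cdc25b, a cell cycle phosphatase, and 0.78 for Ybx3, a cold shock domain protein. It was 0.76 for Bpgm, which makes 2,3-bisphosphoglycerate in red cells, and 0.75 for Ube2o, an E2 ubiquitin enzyme that clears proteins from maturing red cells. Eftud2 (0.70), Alox15 (0.67), Sf3b3 (0.62), Ddb1 (0.62) and Ap1b1 (0.61) followed. Alox15 is a lipoxygenase known from reticulocytes, where it helps to break down mitochondria. Of all probe sets 0.248% had r above 0.5 with this pair, and the 99th percentile was 0.42. With any 1 rat left out, r stayed at or above 0.64 for the first 7 of these genes, and the lowest value for the other 3 was 0.49, for Sf3b3 without replicate 3 of 97.1 mg/kg.

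The genes that followed Hbb and Alas2 had shifts of the same direction at 9.71 mg/kg in most cases. The difference from vehicle there was -0.34 for Hba-a3, -0.30 for Cdc25b, -0.24 for Alox15, -0.21 for Bpgm, -0.14 for Ybx3 and -0.11 for Ube2o. For Sf3b3 it was 0.01. None of these passed the adjusted limma test, and they share the vehicle and 9.71 mg/kg rats with the selection of Hbb and Alas2.

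With S100a8 and S100a9 alone, r was 0.69 for Camp, the cathelicidin of neutrophil granules, 0.68 for Stk36, a kinase, and 0.67 for Mcpt8, a mast cell and basophil protease. Atad2 (0.65), Ubtd2 (0.64), Itgb1bp1 (0.62), Ilf2 (0.60), Nab2 (0.60), Cited4 (0.60) and Tnnt2 (0.59) followed. Here 0.309% of all probe sets had r above 0.5, and the 99th percentile was 0.43. Tnnt2, Mcpt8, Stk36, Cited4, Camp and Itgb1bp1 had mean log2 levels from 2.70 to 3.81, where a probe set may hold little signal above background. Several values rested on replicate 3 of 970 mg/kg. Without it, r was 0.16 for Camp, 0.29 for Itgb1bp1, 0.38 for Ilf2, 0.41 for Mcpt8 and 0.42 for Stk36.

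For Camp, the log2 level at 970 mg/kg was 4.82 in replicate 3 and between 3.38 and 3.71 in the other 5 rats. In the other 5 groups it lay between 3.47 and 4.02.

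**Figure D4:**
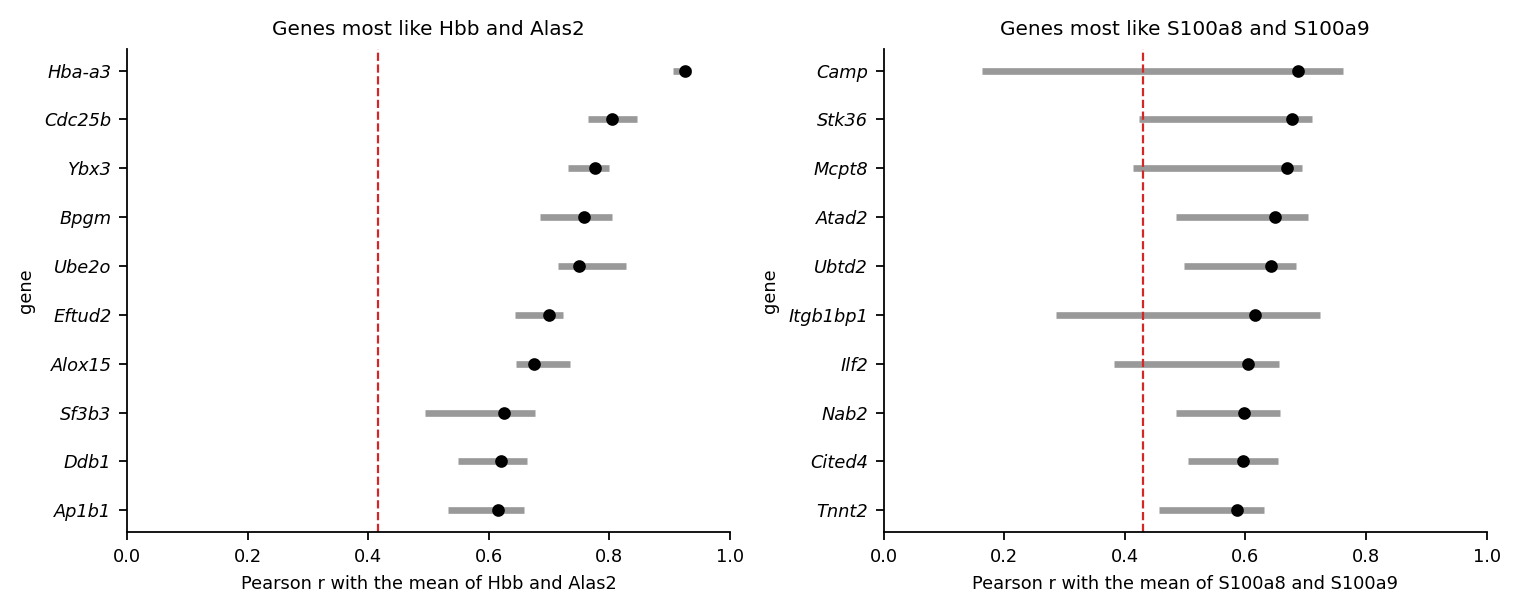
Pearson r of 10 genes with the mean deviation of Hbb and Alas2 (left) and of S100a8 and S100a9 (right) over 36 rats (points), with the range of r when each rat is left out (grey bars) and the 99th percentile of all probe sets (dashed line, 0.42 and 0.43). The ranges on the left all stay right of the line, and those of Camp, Stk36, Mcpt8, Itgb1bp1 and Ilf2 on the right cross it.

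Other red cell genes were set beside Hbb and Alas2 through a list. Of 45 genes on an erythroid list, 33 were measured and 29 of these were not members. Hba-a3 and Bpgm, 2 of the 29, had r above 0.5 with the pair, against 0.248% of all probe sets. The median r over the 29 was 0.04. With each rat left out in turn the count was 2 or 3, except for 4 without replicate 2 of vehicle. Ahsp, the chaperone of alpha globin, had 0.42, and Hbe1, an embryonic globin, 0.49. Gata1 and Klf1, the transcription factors of red cell precursors, had -0.10 and -0.06. Rhag, Ank1 and Kel, of the red cell membrane, had 0.09, 0.04 and 0.14. Gata1, Klf1, Rhag, Ank1 and Kel had mean log2 levels from 3.10 (Gata1) to 4.30 (Ank1). Such probe sets may hold little signal above background, so a low r says little about these genes. Of the 29 genes, 15 had a mean level above the array median. Apart from Hba-a3 and Bpgm, these 15 had r between -0.30 (Sptb) and 0.24 (Slc25a39). Among them were Epb41 at -0.21, Gypc at 0.04 and Bnip3l at 0.03. The list had 0 genes past the adjusted limma test in either direction at every dose, with medians between -0.02 and 0.02. Over all probe sets 0% to 0.00644% passed, so a count of 0 does not set the list apart from the array. The named genes of smallest p had differences of -0.34 (Hba-a3) and 1.14 (Nfe2) at 9.71 mg/kg and 0.14 (Rhd) and 0.13 (Add2) at 970 mg/kg.

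The other enzymes of haem synthesis did not follow Alas2 closely. All 7 measured enzymes other than Alas2, Alas1 to Fech, had r between -0.19 and 0.28 with the Hbb and Alas2 pair. Alas1, the form of the first enzyme used in all tissues, had r = 0.02 and a difference from vehicle of 0.05 at 9.71 mg/kg. The list had 0 calls at every dose, against 0% to 0.00644% of all probe sets.

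Of 40 genes on a neutrophil list 24 were measured, 21 of them not members. Of the 21, 2 had r above 0.5 with S100a8 and S100a9, against 0.309% of all probe sets: Camp and RatNP-3b, a neutrophil defensin (0.58). Without replicate 3 of 970 mg/kg 0 of the 21 did, with 0.16 for Camp and 0.49 for RatNP-3b, and without replicate 6 of 97.1 mg/kg 1 of the 21 did. Np4, another defensin, had 0.46 over all rats and 0.38 without replicate 3 of 970 mg/kg. Csf3r, the G-CSF receptor, had 0.12, Cxcr2, the chemokine receptor, -0.01 and Itgam, an integrin of the neutrophil surface, 0.11. Of granule genes, Pglyrp1 had 0.28, Chi3l1 0.22 and Mmp9 -0.24. Lcn2, which hepatocytes also make, had 0.07. Csf3r, Cxcr2, Itgam, Pglyrp1, Chi3l1 and Mmp9 had mean log2 levels from 3.13 (Mmp9) to 4.15 (Chi3l1). Camp had 3.74 and RatNP-3b 2.91. Such probe sets may hold little signal above background, so a low r says little about these genes. Of the 21 genes, 5 had a mean level above the array median, and these had r between -0.31 (Slpi) and 0.07 (Lcn2). Among them were Anxa1 at -0.22, Il1b at 0.06 and Alox5ap at 0.03. The median r over the 21 was 0.06. The mean log2 level over the 21 genes lay between 4.22 and 4.43 in vehicle and between 4.23 and 4.51 at 970 mg/kg. The list had 0 calls at every dose, against 0% to 0.00644% of all probe sets.

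The lists for other cell types had 0 calls at every dose as well, which does not set them apart from the array (0% to 0.00644% of all probe sets). Mean log2 levels ran, in vehicle and at 970 mg/kg, from 5.34 to 5.50 and 5.26 to 5.43 for 9 platelet markers. They ran from 7.64 to 8.36 and 7.90 to 8.41 for 13 monocyte and macrophage markers, and from 4.32 to 4.65 and 4.52 to 4.69 for 12 lymphocyte markers. The difference from vehicle at 970 mg/kg lay above 0 for 12 of the 13 monocyte and macrophage markers (median 0.20). It did for 9 of the 12 lymphocyte markers (median 0.12) and 2 of the 9 platelet markers (median -0.04). At the other doses 11 or 12 of the 13 lay above 0. All doses share the same vehicle rats, and these counts were not tested. Of 15 genes that bind or recycle haem, haemoglobin and iron, 9 lay above 0 at 970 mg/kg with a median of 0.02, which became -0.015 without replicate 4. Of these, Hmox1, haem oxygenase, had 0.26 at 970 mg/kg and 0.17 at 9.71 mg/kg (limma adjusted p = 0.966 and 0.978). Of 11 proliferation genes all 11 lay above 0 at 970 mg/kg, with a median of 0.48, and the median r of this list with the S100a8 and S100a9 pair was 0.24 and with the Hbb and Alas2 pair 0.06. Without replicate 3 of 970 mg/kg these became 0.33 for the difference, with all 11 still above 0, and -0.20 and -0.02 for r. What part any of these lists has in the values of the members was not tested.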

How the data were processed

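The values analysed are the log2 signals of each probe set as deposited, made by the authors with RMA and the affy package, per the submitters' processing notes, whose versions are not given in the sources used here. RMA corrects background and sets arrays to 1 distribution of signals, so a change in the total signal of an array cannot be seen. Of 31099 probe sets, 57 controls were left out. Probe sets took their gene from the platform annotation: 20826 name 1 gene, 436 several and 9780 none. No filter on low values was used.

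The 7 members and 9 gene lists (175 genes, 133 measured) were chosen with earlier results of these data known. Each dose was compared with vehicle in 1 limma 3.58.1 fit (R 4.3.3) over all 36 samples, two-sided, with Benjamini-Hochberg adjustment over 31042 probe sets and a threshold of 0.05. The fit also gave the test of the 5 doses together and the trend over dose steps 0 to 5. Correlations used deviations from dose group means and two-sided permutation with 100000 resamples (numpy 2.4.6, scipy 1.17.1). Where a gene has several probe sets, the one of highest mean was used, and for likeness the one of highest r. Genes were named by rule: all members, from each list up to 2 of smallest p at 970 and 9.71 mg/kg, and the 10 of highest r with each group. Other list genes, such as Ahsp, Gata1 and Csf3r, were chosen for what they do after their values were seen.

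Replicate numbers are shared between groups. Residuals of same-numbered samples correlated at a mean r of 0.0048, with 15 of 90 pairs over 0.1, so the number was not taken as a pairing. On simulated data with 100 probe sets changed per size, the fit at 970 mg/kg recovered 94% of 1.5-fold and 98% of 2-fold changes with 9 false calls over 31042 probe sets. The changed probe sets were drawn at random, with normal noise at each one's own within-group SD, whose median over the array is 0.14. Hbb, Alas2, S100a8 and S100a9 had SDs from 0.26 to 0.53, so these shares do not tell what change in them would be found. The number of arrays limits the precision. Nothing in the labels names separate cages or batches, and p-values measure the spread between these samples. Alternatives are in the closing section.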

Additional observations from a re-analysis of the deposited data

Results flagged for a closer look

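Within each group of 6 rats, the highest and lowest levels of the 8 member probe sets were compared with the rest of the group by Dixon's test. Of 48 groups, 3 held a value set far apart. S100a8 stood at 6.41 in replicate 3 of 970 mg/kg, with the next rat at 4.44. S100a9 stood at 7.85 in the same rat, with the next at 6.01. This rat was the one by which the neutrophil genes were selected, so both values are descriptions. S100a8 stood at 5.68 in replicate 6 of 97.1 mg/kg, with the next at 4.83. It was the only 1 among the 43 groups that took no part in the selection, and chance alone flags about 1 in 20 groups.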

How the results depend on the processing

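No member probe set passed the adjusted limma test at 0.05 under the alternatives run. This leaves out the values by which they were selected, which are not tested. Among the alternatives were a threshold of 0.1, centring on array medians, cyclic loess, the beta-actin gap as a covariate and array weights. Others were an intensity trend, a filter at the median level, 12 samples fitted alone and each sample left out. Over all probe sets the adjusted count stayed at 0 for the 3 lowest doses and at 2 to 3 otherwise. With the replicate number as a block, the same tests again gave 0 calls for the members, r of Hbb with Alas2 was 0.930 and of S100a8 with S100a9 0.913, and no call changed. The number of member pairs past the permutation threshold was 2, and 4 with the other Slc4a1 probe set. Leaving out each rat gave r of 0.917 to 0.942 for Hbb with Alas2 and 0.817 to 0.927 for S100a8 with S100a9. Of 1740 differences from vehicle recomputed under alternatives, 1736 moved by less than the within-group SD, and the other 4 were those of the other Slc4a1 probe set: 0.14, -0.08, -0.33 and 0.25 at 0.1, 0.97, 9.71 and 970 mg/kg. The cause of this split between probe sets was not tested. The within-group SD is a wide yardstick for S100a8 (0.47) and S100a9 (0.53), since it includes replicate 3 of 970 mg/kg. Without that rat their differences at 970 mg/kg moved from 0.10 to -0.27 and from 0.35 to -0.0041, and both count among the 1736. The Hbb difference at 0.1 mg/kg ran from -0.014 to 0.096, so the count does not tell whether a sign held. Detection calls were not analysed here, so probe sets with levels near 3 or 4 may hold little signal above background.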

Other observations

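Nfe2, a transcription factor of red cell and platelet precursors, stood out among the erythroid genes for its spread, with a within-group SD of 0.81 on the log2 scale. Its level ran from 4.44 to 7.55 (median 5.77) in vehicle, 5.79 to 7.54 (median 6.31) at 0.1 mg/kg and 5.87 to 7.20 (median 6.40) at 0.97 mg/kg. It ran from 5.89 to 8.06 (median 7.05) at 9.71 mg/kg, 6.34 to 8.80 (median 7.13) at 97.1 mg/kg and 5.24 to 7.38 (median 6.06) at 970 mg/kg. The differences from vehicle of 1.14 at 9.71 mg/kg (limma adjusted p = 0.967) and 1.49 at 97.1 mg/kg were the widest on the list, and all groups overlapped vehicle. Nfe2 did not follow Hbb and Alas2 (r = -0.20) or S100a8 and S100a9 (r = 0.26).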
